A study of Mus musculus with 12 samples.

Results

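The sirtuin family of the mouse was followed in tissues of Sirt6 knockout animals. Its 7 genes, Sirt1 to Sirt7, were taken by name from the gene symbols of the array, out of 14654 named genes. Of these, 5 (Sirt1, Sirt2, Sirt3, Sirt5 and Sirt6) had named probes, 8 probes of 38784 in all. Sirt4 and Sirt7 had no named probe and were not analysed here. With its probes averaged, Sirt6 transcript was below wild type on 10 of 12 arrays, but its group mean passed the test in no tissue. The values ran from -2.29 on 1 array of 21-day spleen to 0.20 on 1 array of 29-day spleen. The other array of 21-day spleen was at -0.07. Taken singly, the Sirt6 probes were below 0 on 9 of 12 and 8 of 11 arrays, with the same sign on 7 of 11. Sirt2 and Sirt5 were each below 0 on 9 of 12 arrays. None of the measured relatives passed the test in either direction.

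Sirtuins are deacylases that consume NAD+ while they remove acetyl or longer acyl groups from lysines. Sirt6, Sirt1 and Sirt7 work mainly in the nucleus, Sirt2 mainly in the cytoplasm, and Sirt3, Sirt4 and Sirt5 in mitochondria. Sirt6 binds chromatin, deacetylates histone H3, takes part in DNA repair and holds down genes of glucose uptake and glycolysis, and mice without it are small, become hypoglycaemic and die young.

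The RNA was hybridised to 2-colour arrays, each with RNA of a Sirt6 knockout tissue in Cy5 and RNA of the matching wild type tissue, at the same age, in Cy3. There were 6 groups of 2 arrays. The 21-day groups were liver and spleen, each set against pooled RNA of 3 wild type littermates. The 29-day groups were thymus, spleen, skin and liver, with wild type RNA whose make-up the labels do not state. The labels call the knockout samples SIRT6 null at 21 days and S6-ko at 29 days, and give neither the strain nor the part of the gene that was removed. Each value is a log2 ratio, knockout divided by wild type, after its array was centred on the median, so 0 is the array's typical probe and -1 is a halving. Ratios hold no absolute level, so the labelled tissues could not be checked against the presence of their markers.

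Some arrays stood apart. Replicate 6 of 21-day spleen lacked 10155 values (339 to 2523 on the other arrays) and had an SD over probes of 1.14. Replicate 2 of 29-day spleen correlated at -0.28 with its partner over all probes, against 0.12 to 0.46 within the other groups. The Y-linked gene Eif2s3y was at -2.87 to -8.0 on the 21-day arrays, at -0.13 to 0.37 on replicate 1 of each 29-day tissue and at 3.35 to 5.08 on replicate 2. Kdm5d and Uty, also Y-linked, did not follow it on every 21-day array. In 21-day spleen (replicates 6 and 11), Kdm5d was at 0.10 and -2.05 and Uty at 0.77 and 0.87. In 21-day liver, Kdm5d was at -3.40 on replicate 11, and Uty at -3.97 and -0.32 (replicates 2 and 11). At 29 days both were higher on replicate 2 than on replicate 1 of each tissue. The part of these differences in the sirtuin values was not tested. The median of 150 ribosomal protein and respiratory chain genes was -0.79 on replicate 6 of 21-day spleen, -1.04 on replicate 2 of 29-day spleen and between -0.14 and 0.48 on the others. The labels do not say whether the arrays of a group held separate animals. All p-values therefore cover array-to-array spread, whose technical part is not known. Within the 29-day groups this spread took in the difference of Eif2s3y between replicates 1 and 2.

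The bases upstream of 3 members are shown so that the start of the targeted gene can be set beside those of Sirt1, its nuclear relative, and Sirt2, the relative with the lowest group mean. Each run is the 250 bases before an annotated start, 5′ to 3′ on the gene's strand, from RefSeq annotation of GRCm38.p6. Capitals mark GC boxes, spelled GGGCGG. They also mark CCAAT boxes and the E-box spelled CACGTG. All were searched on both strands, with overlapping matches counted separately. The Sirt6 window, chr10:81627567-81627816 on the minus strand, held none of the 3 motifs. Another Sirt6 window, before a further annotated start, chr10:81627323-81627572, held 1 GC box and is not printed. The Sirt1 window, chr10:63339036-63339285 on the minus strand, held 6 GC boxes, of which 2 overlap, and 2 E-boxes. In the Sirt2 window, chr7:28766502-28766751 on the plus strand, there were 1 GC box and 2 CCAAT boxes.
Sirt6: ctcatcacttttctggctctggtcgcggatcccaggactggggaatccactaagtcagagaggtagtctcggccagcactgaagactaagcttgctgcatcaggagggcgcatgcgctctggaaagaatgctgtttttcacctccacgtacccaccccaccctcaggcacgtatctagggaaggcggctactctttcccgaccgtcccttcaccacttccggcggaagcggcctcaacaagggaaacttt
Sirt1: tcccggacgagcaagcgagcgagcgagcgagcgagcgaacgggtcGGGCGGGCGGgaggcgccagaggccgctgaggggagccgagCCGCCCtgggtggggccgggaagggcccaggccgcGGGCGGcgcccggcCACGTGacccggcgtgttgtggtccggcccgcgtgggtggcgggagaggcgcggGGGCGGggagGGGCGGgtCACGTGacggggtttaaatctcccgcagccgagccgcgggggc
Sirt2: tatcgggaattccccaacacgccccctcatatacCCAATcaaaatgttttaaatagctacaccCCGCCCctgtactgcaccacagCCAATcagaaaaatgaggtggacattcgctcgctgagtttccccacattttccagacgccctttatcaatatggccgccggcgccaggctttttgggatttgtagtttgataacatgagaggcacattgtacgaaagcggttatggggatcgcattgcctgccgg
Over 32851 such windows, 32.7% held a GC box, 33.8% a CCAAT box and 6.02% an E-box. The GC content was 56.8% for Sirt6, 79.2% for Sirt1 and 50% for Sirt2, against a median of 52.4%. Most of the Sirt6 window lies inside the annotated span of the gene (chromosome 10, 81621787 to 81627792), as the annotated starts of Sirt6 differ. Neither Sirt6 window borders the outer end of that span. The Sirt1 and Sirt2 windows border the spans of their genes, so the motif counts compare unlike regions.

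Sirt6 was read by probes 4451 and 9711. On probe 4451 the ratio was 0.03 and -0.59 in 21-day liver (replicates 2 and 11), -1.66 and -0.91 in 21-day spleen (replicates 6 and 11), -0.16 and -0.04 in 29-day liver, -0.36 and 0.09 in skin, -0.15 and 0.18 in 29-day spleen, and -0.39 and -0.27 in thymus (replicates 1 and 2 at 29 days). This probe was lowest in 21-day spleen, where both arrays lay below every array of the other groups. On probe 9711, in the same order, it was -1.22 and -0.77 in 21-day liver, -2.92 and 0.77 in 21-day spleen, -0.55 on replicate 2 of 29-day liver with no value on replicate 1, -0.06 and -0.21 in skin, 0.55 and 0.10 in 29-day spleen, and -1.32 and -0.77 in thymus. Both arrays of 21-day liver and of thymus were low on probe 9711, whereas the 21-day spleen arrays held its lowest and its highest value.

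The probes of Sirt6 differed more from each other than those of its relatives. Probe 9711 minus probe 4451 ranged from -1.25 (21-day spleen, replicate 6) to 1.67 (21-day spleen, replicate 11), with an SD of 0.865 over 11 arrays, and the probes had the same sign on 7 of them. The same difference had an SD of 0.221 over 11 arrays for Sirt3 and of 0.461 over 12 arrays for Sirt5. Across arrays the rank correlation between the probes of a gene was 0.28 for Sirt6, 0.76 for Sirt3 and 0.74 for Sirt5, over 11, 11 and 12 arrays that share their RNA. The position of these probes relative to the removed part of Sirt6 was not used here, so a probe near 0 does not check the genotype.

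**Figure D1:**
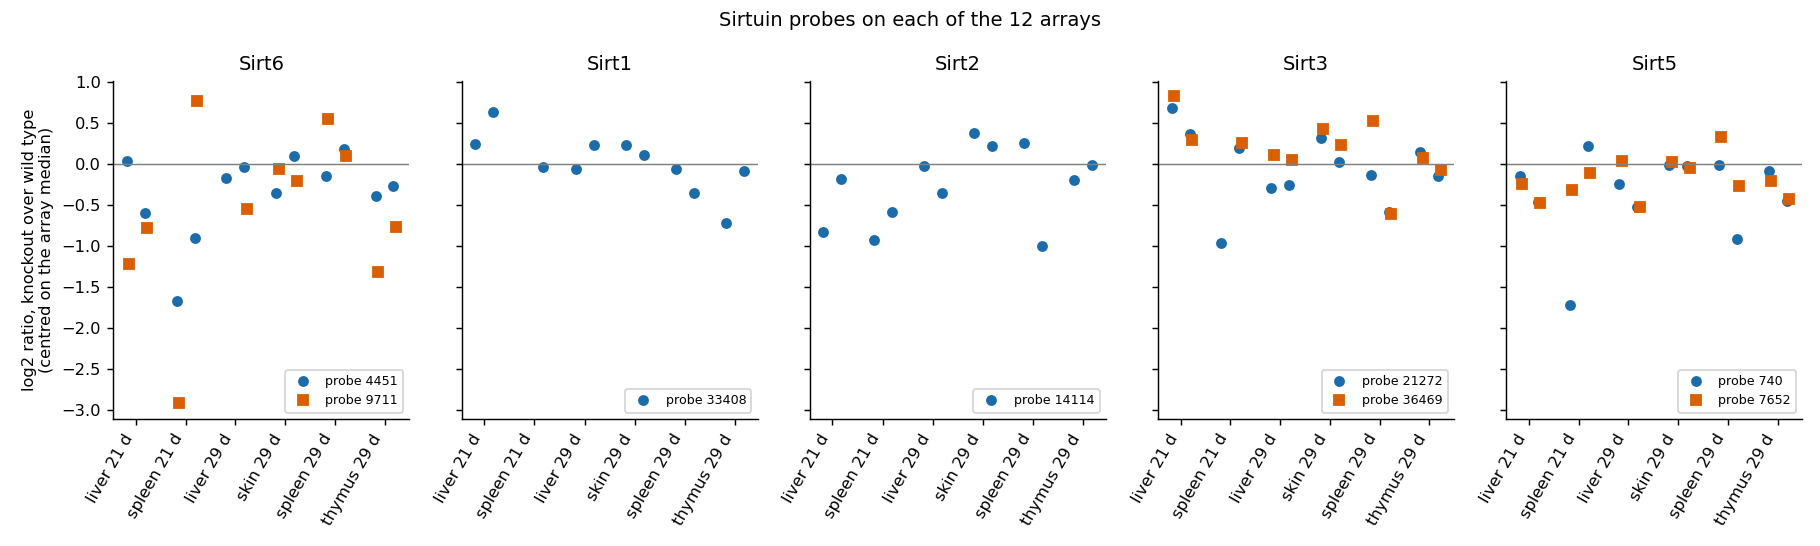
Each point is 1 probe of a sirtuin gene on 1 array, as the centred log2 ratio of knockout over wild type (vertical axis), by tissue and age (horizontal axis, the lower replicate number at the left of each tick); circles and squares are the probes of a gene. The Sirt6 squares (probe 9711) run from -2.92 to 0.77, both in 21-day spleen.

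Probe 4451 lay inside the range from the 5th to the 95th percentile of its array on all 12 arrays, and probe 9711 lay outside it on 3 of 11. Probe 4451 lay between the 5.74th and the 66.0th percentile of all probes on the 12 arrays, with a median of 18.7. Probe 9711 ranged from the 0.989th to the 94.8th percentile on 11 arrays, with a median of 11.2. The arrays with the widest spread were those at 21 days, where the values of Sirt6 also ranged most.

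**Figure D2:**
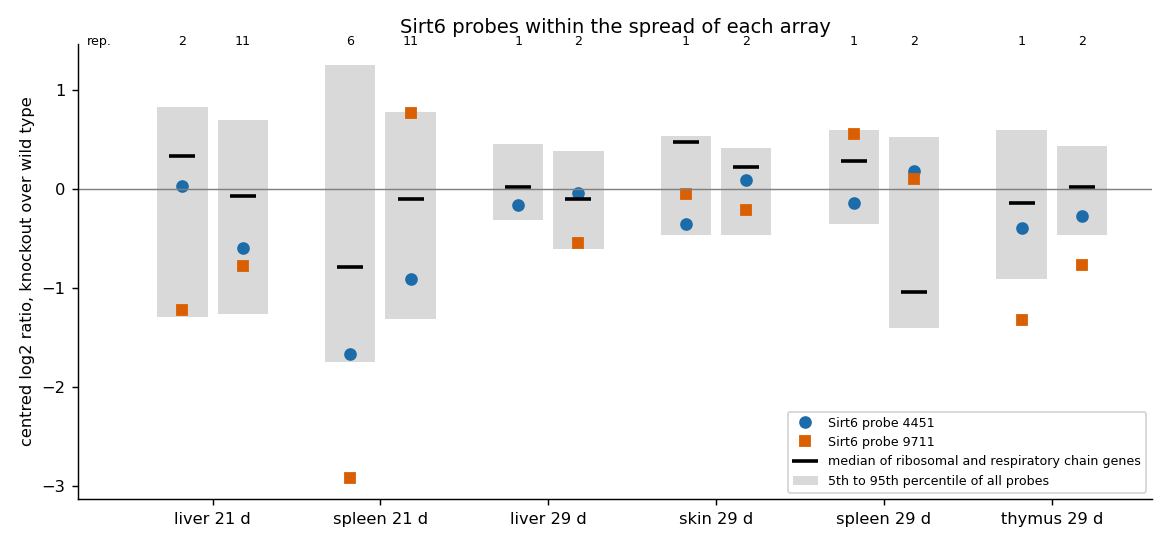
Grey bars span the 5th to the 95th percentile of all probes on each array (centred log2 ratio of knockout over wild type), with replicate numbers above, the Sirt6 probes as points and the median of ribosomal and respiratory chain genes as a black line. Probe 9711 fell below the bar on replicate 6 of 21-day spleen and on both thymus arrays, and the black line was at -1.04 on replicate 2 of 29-day spleen.

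With its probes averaged, Sirt6 was at -0.59 and -0.68 in 21-day liver, at -2.29 and -0.07 in 21-day spleen, at -0.16 and -0.30 in 29-day liver, at -0.21 and -0.06 in skin, at 0.20 and 0.14 in 29-day spleen and at -0.86 and -0.52 in thymus. Both arrays were below 0 in 5 of 6 groups, and both were above 0 in 29-day spleen. The value of replicate 1 of 29-day liver rests on probe 4451 alone. Centred on ribosomal and respiratory chain genes instead, replicate 11 of 21-day spleen moved to 0.03 and the arrays of 29-day spleen to -0.08 and 1.17.

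The group means of Sirt6, from lowest to highest, were -1.18 in 21-day spleen (SE 0.392, adjusted p = 0.103), -0.69 in thymus (adjusted p = 0.908), -0.64 in 21-day liver (adjusted p = 0.401), -0.23 in 29-day liver (adjusted p = 1), -0.13 in skin (adjusted p = 1) and 0.17 in 29-day spleen (adjusted p = 1.00), each with n = 2 arrays and the same SE, from limma with Benjamini-Hochberg adjustment. Neighbours in this order overlapped on single arrays, except 21-day liver against 29-day liver and skin against 29-day spleen. As a share of the wild type level the means were 44.1% in 21-day spleen (95% interval 24.0% to 81.2%), 62.1% in thymus (33.8% to 114%) and 64.3% in 21-day liver (34.9% to 118%). In the other groups they were 85.3% in 29-day liver (46.4% to 157%), 91.3% in skin (49.6% to 168%) and 113% in 29-day spleen (61.2% to 207%). The SE behind these intervals was pooled over the groups, whereas the SD between the 2 Sirt6 arrays was 1.57 in 21-day spleen and 0.0449 in 29-day spleen. The interval of 21-day spleen held neither of its arrays, at -2.29 and -0.07. In bulk tissue, fewer cells of a type and less RNA per cell cannot be told apart.

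The mean of Sirt6 over all 6 groups was -0.45 (SE 0.160, adjusted p = 0.167), or 73.2% of wild type (57.1% to 93.9%). Over the 2 groups at 21 days it was -0.91 (SE 0.277, adjusted p = 0.0805), and over the 4 groups at 29 days -0.22 (SE 0.196, adjusted p = 0.762). Between the ages, Sirt6 was 1.35 higher at 29 days in spleen (SE 0.555, adjusted p = 0.419) and 0.41 higher in liver (SE 0.555, adjusted p = 0.890). The set of arrays changed with age, so the 2 cannot be told apart here. The difference of Sirt6 among the 4 tissues at 29 days did not pass the moderated F test (adjusted p = 1.00), with 0.86 between the highest and lowest mean.

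Read by its probes, Sirt6 passed the test on 1 of them. Probe 4451 was lower in 21-day spleen by -1.28 (SE 0.237, adjusted p = 0.0280) and over the 2 groups at 21 days by -0.78 (SE 0.168, adjusted p = 0.0272). Of all probes tested on their own, 4.1% passed in 21-day spleen and 6.52% over the 2 groups at 21 days. Probe 9711 was at -1.08 in 21-day spleen (SE 0.668, adjusted p = 0.326) and at -1.04 over the 2 groups (SE 0.472, adjusted p = 0.204).

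With its probes averaged, the Sirt6 value in 21-day spleen rested on 1 array. On replicate 11 of that group, probe 4451 was at -0.91 and probe 9711 at 0.77. Without replicate 11 of 21-day spleen, Sirt6 stood at -2.29 there (adjusted p = 0.000117), and without replicate 6 at -0.07. With replicate 11 left out, Sirt3 and Sirt5 also passed in 21-day spleen, where 26.8% of all features then passed on the single remaining array. Leaving out either 21-day spleen array left the mean of 21-day liver at -0.64 but brought it past the threshold (adjusted p = 0.0396), while 6.67% of all features passed. Some lists of cell type markers were also low in 21-day spleen and thymus, and others were not. The median of 5 exocrine pancreas markers was -1.51 and -1.68 in 21-day spleen (replicates 6 and 11, all 4 and all 5 with a value below 0), and that of 5 erythroid markers -0.87 and -1.76 (all 3 and all 4 below 0). The median of 6 heart muscle markers in thymus, where Sirt6 was next lowest, was -1.82 and -2.14 (all 6 below 0 on both arrays). In 21-day spleen the medians of heart muscle markers were 0.62 and 0.12, and those of neutrophil markers -0.81 and 1.31 (replicates 6 and 11). In thymus the medians of B cell markers were 0.82 and 0.03. The part of the cell type markers in the Sirt6 values was not tested.

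No sirtuin gene passed the test in any of the 12 comparisons, at an adjusted p under 0.05 over all features. The share of all features that passed was 2.54% in 21-day liver, 4.13% in 21-day spleen, 0.104% in 29-day liver, 0.0389% in skin, 0% in 29-day spleen and 0.013% in thymus. It was 1.67% for the mean of 6 groups, 0.049% for the mean of the 4 groups at 29 days and 6.39% for the mean of the 2 groups at 21 days. For the comparisons between groups it was 0.0138% for age in liver, 0.0866% for age in spleen and 0.00979% among the tissues at 29 days. With the arrays of each age fitted alone, 0 of 21531 features passed in 21-day liver, in 21-day spleen or in their mean. Calls at 21 days therefore need the fit shared with the 29-day arrays, most of which had a narrower spread. At an unadjusted p under 0.05, limma passed 2 of 4 members in 21-day spleen (Sirt2 and Sirt6) beside 6314 of 23146 features, and 3 of 4 for the mean of 6 groups (Sirt2, Sirt5 and Sirt6) beside 4311 of 21397. At that level 2 of 4 members passed for the mean at 21 days (Sirt2 and Sirt6) beside 5657 of 21529 features, 1 of 4 for age in spleen (Sirt6) beside 2559 of 23086, and 0 of 5 in 29-day spleen beside 1015 of 30783. In the other 7 comparisons 0 of 5 members passed at that level, beside 5814 of 29093 features in 21-day liver, 2388 of 29043 for age in liver, 2553 of 30641 for the mean at 29 days, 1605 of 30806 in thymus, 667 of 30812 in 29-day liver, 1006 of 30810 in skin and 718 of 30641 among the tissues.

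**Figure D3:**
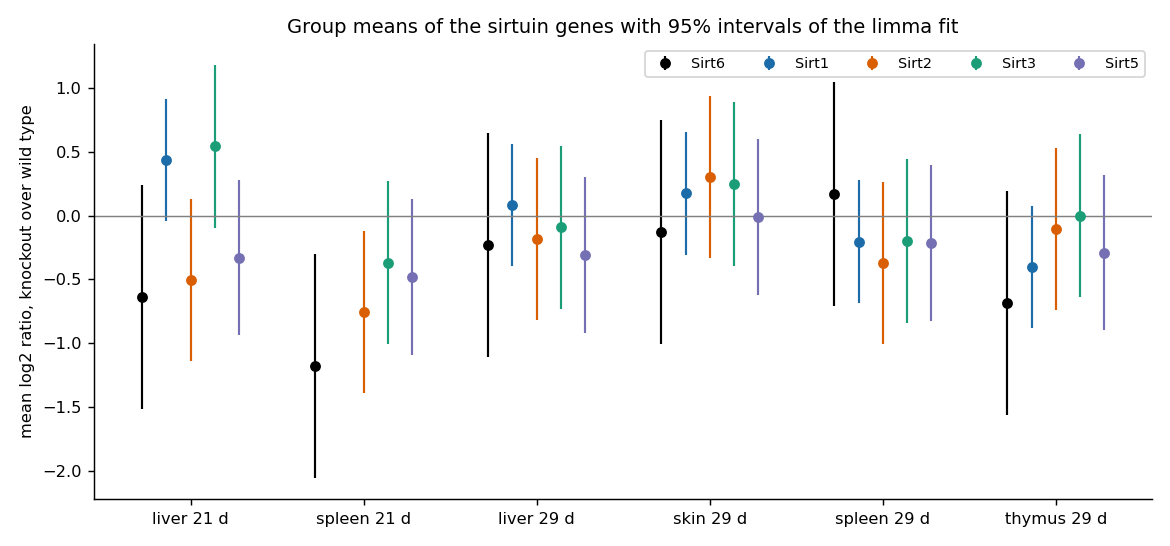
Points are the mean log2 ratio of knockout over wild type of each sirtuin gene in each group of 2 arrays, and bars are the 95% intervals of the limma fit. The intervals of Sirt6 and Sirt2 in 21-day spleen, -2.06 to -0.30 and -1.39 to -0.12, were the ones that left out 0, before adjustment over all features.

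Sirt1, the nuclear deacetylase of p53, FOXO factors and PGC-1alpha (chromosome 10, 63319005 to 63339035, minus strand), was read by probe 33408. Its ratio was 0.24 and 0.63 in 21-day liver, -0.04 on replicate 11 of 21-day spleen with no value on replicate 6, -0.06 and 0.23 in 29-day liver, 0.23 and 0.12 in skin, -0.06 and -0.35 in 29-day spleen, and -0.72 and -0.09 in thymus. Both arrays were above 0 in 21-day liver and skin and both below 0 in 29-day spleen and thymus. Its mean was highest in 21-day liver, 0.44 (SE 0.211, adjusted p = 0.292) or 135% of wild type (96.9% to 189%), and lowest in thymus, -0.40 (adjusted p = 0.908). It was not tested in 21-day spleen.

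Sirt2, a mainly cytoplasmic deacetylase of tubulin (chromosome 7, 28766752 to 28788665, plus strand), was read by probe 14114. It was at -0.83 and -0.18 in 21-day liver, -0.92 and -0.58 in 21-day spleen, -0.02 and -0.35 in 29-day liver, 0.38 and 0.22 in skin, 0.26 and -1.00 in 29-day spleen, and -0.20 and -0.01 in thymus. Both skin arrays were above both arrays of every other group but 29-day spleen, whose arrays lay on either side of 0. Its mean in 21-day spleen was -0.75 (SE 0.283, adjusted p = 0.131), or 59.3% of wild type (38.2% to 92.1%), and over the 2 groups at 21 days -0.63 (SE 0.200, adjusted p = 0.0903). Without centring, the latter was -0.69 and passed (adjusted p = 0.0450), as did 9.88% of all features. Over the 6 groups it was -0.27 (SE 0.116, adjusted p = 0.232), and without replicate 1 of 29-day spleen it was -0.37 and passed (adjusted p = 0.0345), as did 9.64% of all features.

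Sirt3, the main mitochondrial deacetylase (chromosome 7, 140863663 to 140882309, minus strand), was read by probes 21272 and 36469. Their average was 0.75 and 0.33 in 21-day liver, -0.97 and 0.23 in 21-day spleen, -0.09 and -0.10 in 29-day liver, 0.37 and 0.12 in skin, 0.20 and -0.60 in 29-day spleen, and 0.11 and -0.11 in thymus. The arrays of each spleen group lay on either side of 0, and replicate 6 of 21-day spleen rests on probe 21272 alone. The mean of 21-day liver was 0.54 (SE 0.286, adjusted p = 0.325), or 146% of wild type (93.3% to 227%). Over the 6 groups it was 0.02 (SE 0.117, adjusted p = 0.937), or 101% (84.6% to 122%).

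Sirt5, a mitochondrial desuccinylase and demalonylase (chromosome 13, 43365389 to 43395203, plus strand), was read by probes 740 and 7652. Their average was -0.19 and -0.47 in 21-day liver, -1.02 and 0.05 in 21-day spleen, -0.10 and -0.52 in 29-day liver, 0.01 and -0.03 in skin, 0.16 and -0.59 in 29-day spleen, and -0.15 and -0.43 in thymus. It was below 0 on 9 of 12 arrays, and the low array of 21-day spleen was replicate 6, where probe 740 was at -1.72 and probe 7652 at -0.31. The lowest group mean was -0.48 in 21-day spleen (SE 0.272, adjusted p = 0.281). Over the 6 groups it was -0.27 (SE 0.111, adjusted p = 0.212), or 82.7% of wild type (69.6% to 98.3%).

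Whether the relatives were higher where Sirt6 was low was read from the group means. In 21-day spleen and thymus, the groups of lowest Sirt6, the means of Sirt2, Sirt3 and Sirt5 were all below 0. They were -0.75, -0.37 and -0.48 in 21-day spleen and -0.10, -0.00075 and -0.29 in thymus. In 21-day liver, Sirt1 and Sirt3 had means above 0 (0.44 and 0.54) and Sirt2 and Sirt5 below 0 (-0.51 and -0.33). The upper ends of the 95% intervals for the relatives, before adjustment, ranged from 92.1% to 227% of wild type across the groups. Where Sirt6 was lowest they were 92.1% for Sirt2, 109% for Sirt5 and 121% for Sirt3 in 21-day spleen, and 106% for Sirt1, 125% for Sirt5, 144% for Sirt2 and 156% for Sirt3 in thymus. Across arrays Sirt6 had a rank correlation of -0.21 with Sirt1 (11 arrays), 0.06 with Sirt3, 0.29 with Sirt2 and 0.53 with Sirt5 (12 arrays each). The relatives were closer to one another in some pairs, with 0.74 for Sirt1 and Sirt3, 0.66 for Sirt2 and Sirt5, and 0.61 for Sirt3 and Sirt5. The arrays share the wild type RNA or its tissue and differ in spread, so these are descriptions.

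Ribosomal protein and respiratory chain genes ranked the arrays much as the relatives did. The rank correlation with their median was 0.73 for Sirt3, 0.71 for Sirt2, 0.66 for Sirt5 and 0.52 for Sirt1, against 0.25 for Sirt6 and a median of 0.12 over 14588 named genes. Of those genes, 89.7% had a lower correlation than Sirt3, 88.8% than Sirt2, 85.4% than Sirt5, 76.1% than Sirt1 and 58.0% than Sirt6. Many other genes therefore ranked the arrays in the same way. The arrays with the lowest ribosomal and respiratory medians, replicate 2 of 29-day spleen and replicate 6 of 21-day spleen, were also those with the lowest Sirt2, Sirt3 and Sirt5. Centred on these genes, which moves the arrays by up to 1.04, the means in 29-day spleen became 0.17 for Sirt1, 0.01 for Sirt2, 0.18 for Sirt3 and 0.16 for Sirt5, all below 0 under median centring. With both of those spleen arrays left out, a choice made after seeing the data, the Sirt6 mean was -0.64 in 21-day liver (adjusted p = 0.0284), -0.07 in 21-day spleen and -0.26 over the 6 groups (adjusted p = 0.0577). In that fit 12.3% of all features passed in 21-day liver and 5.96% over the 6 groups.

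The named genes whose pattern over the arrays was most like that of Sirt6, out of 14587 compared by rank correlation, were Ldlrad4, an inhibitor of TGF-beta signalling (0.87), Bnipl (0.87), Mbtps2, a Golgi protease that activates SREBP (0.83), Tigd4 (0.83) and Tmem109 (0.80), over 12 arrays. For the relatives it was Slc25a25, a mitochondrial carrier, for Sirt1 (0.97), Tomm7, a subunit of the mitochondrial protein importer, for Sirt2 (1), Akt1s1, a regulator of mTORC1, for Sirt3 (0.98), each over 11 arrays, and Ctdsp1, a nuclear phosphatase, for Sirt5 (0.99, 12 arrays). These are the highest of many correlations over few arrays that differ in spread, and high values can arise without any link. They are descriptions, and a shared regulation with the sirtuins was not tested.

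The genes measured on either side of Sirt6 did not pass the test in any comparison. Ankrd24 lies 29 bases beyond the upstream (5′) side of Sirt6 and was at 0.87 and 0.33 in 21-day spleen, a mean of 0.60 (SE 0.201, adjusted p = 0.111). Tle6, a member of the subcortical maternal complex 20602 bases away on the other side, was below 0 on 11 of 12 arrays, with a mean of -0.32 over the 6 groups (SE 0.0885, adjusted p = 0.0998).

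NAD+ is the cosubstrate of all sirtuins, and 18 of 24 listed genes of NAD+ supply and use were measured. Among them 1 of 18 fell in 21-day liver, where 2.54% of all features passed. Of 15 tested in 21-day spleen 1 rose and 1 fell, where 4.13% of all features passed. The list's median was 0.02 in 21-day liver (all features -0.04) and -0.19 in 21-day spleen (all features -0.03). Kmo, which makes 3-hydroxykynurenine on the way from tryptophan to NAD+, fell in both. It was at -0.62 and -0.83 in 21-day liver, -0.93 and -1.03 in 21-day spleen, -0.50 and -0.38 in 29-day liver, -0.51 and -0.50 in skin, -1.25 and -1.15 in 29-day spleen, and -0.13 and -0.41 in thymus, below 0 on every array. Its mean over the 6 groups was -0.69 (SE 0.0643, adjusted p = 0.00238), and over the 4 groups at 29 days -0.60 (SE 0.0787, adjusted p = 0.0456). No array had its dyes swapped, so a fixed dye preference of the Kmo probes would add to every array alike, which was not tested. The adjusted p was 0.0476 in 21-day liver and 0.0184 in 21-day spleen, and of the 29-day tissues none passed alone. Leaving out 1 array at a time, Kmo missed the threshold in 8 of 12 fits in 21-day liver (adjusted p up to 0.188), in 2 of 12 in 21-day spleen (up to 0.0502), in 9 of 12 for the 29-day mean (up to 0.321) and in 0 of 12 for the mean over 6 groups. Centred on ribosomal and respiratory chain genes, the mean over 6 groups was -0.61 and did not pass (adjusted p = 0.133).

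Nmrk1, the kinase that turns nicotinamide riboside into nicotinamide mononucleotide, was at 0.57 and 0.70 in 21-day liver, 1.26 and 0.54 in 21-day spleen, 0.20 and 0.42 in 29-day liver, -0.02 and 0.15 in skin, -0.16 and -0.03 in 29-day spleen, and 0.16 and 0.27 in thymus. The 21-day arrays were all above the 29-day arrays. It rose in 21-day spleen (0.90, SE 0.194, adjusted p = 0.0415) and over the 2 groups at 21 days (0.77, SE 0.137, adjusted p = 0.0139). The limma call over the 2 groups was lost when centred on ribosomal and respiratory chain genes (adjusted p = 0.178). It was also lost with scaled arrays (0.104), quantile normalization (0.111), single ages (0.338) and array weights (0.186). The call in 21-day spleen was lost in 7 of 12 fits that left out 1 array, with the lowest value, 0.54, and the highest adjusted p, 0.202, without replicate 6 of 21-day spleen. Its difference between the ages in spleen, -0.99 (SE 0.274), did not pass (adjusted p = 0.265).

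Of 25 listed sirtuin regulators and protein substrates, 20 were measured. Among 20 tested in 21-day liver 1 fell (list median 0.08, all features -0.04), where 2.54% of all features passed. Among 16 tested in 21-day spleen 1 rose (list median -0.12, all features -0.03), where 4.13% of all features passed. Acss2, the cytosolic and nuclear acetyl-CoA synthetase whose activity Sirt1 raises, was at -1.98 and -1.34 in 21-day liver, 0.47 and 0.13 in 21-day spleen, -1.11 and -1.57 in 29-day liver, -1.08 and -0.61 in skin, 0.21 and -0.63 in 29-day spleen, and -0.35 and -0.29 in thymus. Both liver groups and skin were low and did not overlap 21-day spleen. Acss2 fell in 21-day liver (-1.66, SE 0.253, adjusted p = 0.0123) and over the 6 groups (-0.68, SE 0.103, adjusted p = 0.0196). The latter missed the threshold in 6 of 12 fits that left out 1 array (adjusted p up to 0.0932), and the former without replicate 2 of 21-day liver (-1.34, adjusted p = 0.0899). Its mean in 29-day liver was -1.34 (SE 0.253, adjusted p = 0.164). Ppara, the nuclear receptor of fatty acid oxidation, rose in 21-day spleen (1.22 and 0.57, mean 0.89, SE 0.211, adjusted p = 0.0487) and ranged from -0.02 to 0.91 on the other arrays. This call was lost in 9 of 12 fits that left out 1 array, with the lowest value, 0.57, and the highest adjusted p, 0.273, without replicate 6 of 21-day spleen.

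**Figure D4:**
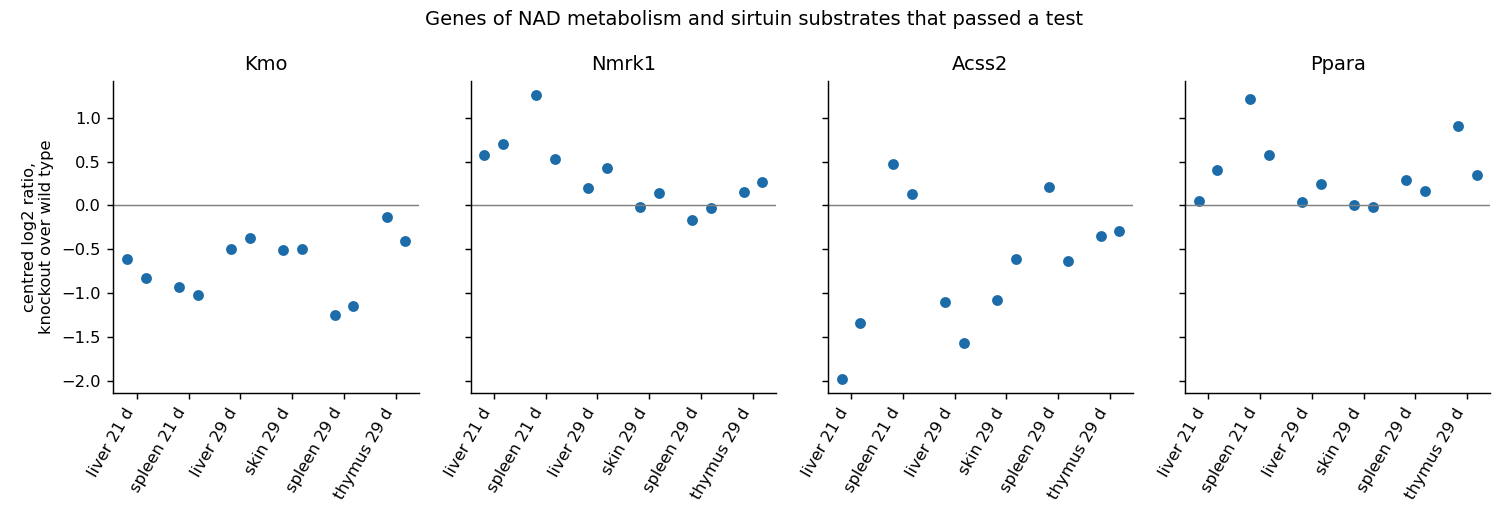
Each point is the centred log2 ratio of knockout over wild type on 1 array for the genes of NAD+ metabolism (Kmo, Nmrk1) and of sirtuin substrates and regulators (Acss2, Ppara) that passed a test, by tissue and age. Kmo lay below 0 on all 12 arrays, and Acss2 was lowest in liver, at -1.98 to -1.11.

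None of the 9 measured zinc-dependent deacetylases, of 11 listed, passed in any comparison. The genes of smallest p were Hdac4, a class IIa deacetylase, at 0.61 and 0.72 in 21-day spleen (mean 0.67, SE 0.172, adjusted p = 0.0655), and Hdac11 at 0.71 and 0.51 in 21-day liver (mean 0.61, SE 0.176, adjusted p = 0.109). The list's median was 0.08 in 21-day liver and -0.24 in 21-day spleen.

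None of the 12 measured genes of glucose uptake and glycolysis bound by SIRT6, of 15 listed, passed either. Slc2a1, the glucose transporter GLUT1, was at 0.66 and 0.90 in 21-day liver (mean 0.78, SE 0.188, adjusted p = 0.0714) and at 1.01 on the 21-day spleen array that held a value, and it lay between -0.21 and 0.64 on the 29-day arrays. Pdk4, which turns down pyruvate dehydrogenase, was above 0 on 10 of 11 arrays, from 0.34 to 2.39, with -0.46 on replicate 2 of thymus. The mean of Pdk4 in 21-day liver was 1.5 (SE 0.544, adjusted p = 0.178). The list's median was 0.32 in 21-day liver (all features -0.04), with 7 of 11 genes above 0, and -0.29 in 29-day spleen (all features -0.01), with 1 of 12 above 0.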

How the data were processed

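The authors deposited 1 table of log2 ratios for 12 arrays; per the labels, Cy5 held knockout RNA and Cy3 wild type RNA on each. Base 2 was inferred from the values (range -8.08 to 9.75). The sources used here do not give the background correction, normalization or centring behind them. With no dye swap, a probe's dye preference adds to its ratio. Per the labels' protocols, TRIzol was used for the knockout RNA and 15 µg of amplified RNA was labelled. Signal over background was not part of the table, so no filter on dim spots was possible, and precision is limited by the number of arrays.

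Arrays were median-centred. The platform annotation named 22204 probes, each with 1 gene, and left 16580 unnamed. For each array, the probes of a gene were averaged and unnamed probes kept on their own, giving 31234 features. Group means of 30871 features were fitted with limma 3.58.1 in R 4.3.3 (lmFit and eBayes; 6 residual and 3.57 prior degrees of freedom for complete features). Tests were two-sided, adjusted by Benjamini-Hochberg over all features tested, and passed at 0.05. Testing a feature in a group needed values on both arrays there and on both arrays of 2 or more further groups. The wild type channel counts as 1 control, whose spread is left out. The steps were run on simulated data with independent normal noise of equal spread on every array. The real arrays differ in spread, so that run does not measure error rates here.

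The members and lists were chosen with earlier results of these data known. Named genes are all members, list genes that passed a test (up to 6 a list by adjusted p, otherwise the 2 of smallest p), the genes most like each member, and the nearest measured named genes beside Sirt6. One replicate number of 21-day liver was given by accession order. Upstream sequences and coordinates come from RefSeq annotation of GRCm38.p6, which was not matched to the array's design. Alternatives were no centring, centring on ribosomal and respiratory chain genes, scaling, quantile normalization, other probe summaries and complete features. Others were single ages, array weights, robust eBayes, a replicate block over the 29-day arrays, and leaving out each array.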

Additional observations from a re-analysis of the deposited data

Results flagged for a closer look

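Acss2 had opposite signs in the tissues at 21 days. Both liver arrays were below 0 (mean -1.66, adjusted p = 0.0123 by limma) and both spleen arrays above 0 (mean 0.30, adjusted p = 0.463, which did not pass). The difference between the tissues was not tested.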

How the results depend on the processing

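Of 1469 comparisons of a log2 ratio, or of a count of members passing, with an alternative, 1314 stayed the same. For a log2 ratio this means its direction and side of the threshold, and for a count an equal number. Sirt6 kept its sign in every group and mean under all alternatives, and passed in some. Many alternatives leave a group mean as it was, such as array weights, robust eBayes, the replicate block or leaving out an array of another group. Its sign could not turn there, so the kept signs and the count above do not measure robustness. Its mean over 6 groups was -0.34 with arrays scaled to one median absolute deviation and -0.43 after quantile normalization, each with 1 member passing (3.83% and 5.95% of all features, against 1.67% under median centring). Probe 4451 alone stood at -1.28 in 21-day spleen. With both deviant spleen arrays left out, chosen after seeing the data, Sirt6 was at -0.64 in 21-day liver (1 member and 12.3% of all features passing). Without centring, 2 members (Sirt2 and Sirt6) passed at 21 days, with 9.88% of all features.

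The signs that turned belonged to relatives. Centred on ribosomal and respiratory chain genes, Sirt1 was at -0.17 in skin and 0.17 in 29-day spleen, Sirt2 at -0.047 and 0.008, and Sirt3 at -0.10 and 0.18, with Sirt3 at 0.073 in 21-day spleen and 0.059 in thymus and Sirt5 at 0.16 in 29-day spleen. Without centring, Sirt3 was at 0.053 in thymus. Without both deviant spleen arrays, 29-day spleen was at 0.26 for Sirt2, 0.20 for Sirt3 and 0.16 for Sirt5, and 21-day spleen at 0.23 for Sirt3 and 0.0545 for Sirt5. By single probes, Sirt3 was at 0.0825 in 29-day liver and 0.0005 in thymus (probe 36469) and at -0.054 over 6 groups (probe 21272), and Sirt5 at 0.028 in 29-day spleen (probe 7652). The cause was not tested.

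Leaving out 1 array at a time, Sirt6 ranged from -0.68 to -0.59 in 21-day liver, -2.29 to -0.07 in 21-day spleen and -0.63 to -0.26 over 6 groups. Sirt1 ranged from -0.065 to 0.23 in 29-day liver and Sirt2 from -1.00 to 0.26 in 29-day spleen. Sirt3 ranged from -0.97 to 0.23 in 21-day spleen, -0.60 to 0.20 in 29-day spleen, -0.11 to 0.11 in thymus, -0.0785 to 0.12 over 6 groups and -0.21 to 0.38 at 21 days. Sirt5 ranged from -1.02 to 0.0545 in 21-day spleen, -0.032 to 0.0055 in skin and -0.59 to 0.16 in 29-day spleen. Members passing ranged from 0 to 1 in 21-day liver, 0 to 3 in 21-day spleen, 0 to 2 over 6 groups, 0 to 2 at 21 days and 0 to 1 for age in spleen. The highest counts came without replicate 11 of 21-day spleen, where 26.8% of all features passed in 21-day spleen, 17.5% over 6 groups, 23.6% at 21 days and 6.67% in 21-day liver; the 21-day liver count was also 1 without replicate 6.

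The replicate numbers may or may not pair the samples. Replicate differences between 29-day tissues correlated at -0.21 to 0.42, not all above 0.1, yet Eif2s3y was higher on replicate 2 in each of the 4 tissues. The replicate block set replicates 1 and 2 apart at 29 days only and left the 21-day arrays unblocked. Number 11 occurs in 21-day liver and in 21-day spleen, and whether it marks 1 animal was not modelled. With this block in limma, Sirt6 was at -1.18 in 21-day spleen (adjusted p = 0.137) and no member passed. Kmo no longer passed for the 29-day mean (adjusted p = 0.0899) or in 21-day liver (0.0814). Nmrk1 (0.0610) and Ppara (0.0726) no longer passed in 21-day spleen. The 21-day changes came through the spread shared by all groups, so they do not test pairing at 21 days. Some list genes also lost calls, with no sign turned, under no centring, ribosomal centring, scaling, quantile normalization, complete features, single ages, array weights and without both deviant spleen arrays. The number of arrays limits all of these values.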
